A study of Homo sapiens with 2 samples.

Results

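The genes described here are the well-expressed members of the human ZNF series, chosen because their symbol is ZNF followed by a number, with at most 1 letter after it, and because their deposited level reached 5 FPKM in at least 1 library. FPKM count fragments per kilobase of transcript after scaling to the size of the library, a level per length. Of 543 genes with such a symbol, 202 passed, 269 were above 0 but under 5 FPKM, and 72 were listed at 0 in both libraries. The choice rests on the same values that are described below, so everything said of these levels and ratios is a description and carries no test.

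Both libraries were poly(A) RNA of ARP1, an established human multiple myeloma cell line, carrying a lentiviral shRNA whose expression is switched on by doxycycline (Dox). One was labelled untreated and the other treated with Dox. The title of each names SRD5A1, the steroid 5-alpha-reductase, as the target, whereas the genotype label of the Dox library reads shRNA-SRD5A2. With 1 library per condition there was no replicate error anywhere, and the intervals given below cover counting error only.

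The targeted gene did not follow the labels. Reads of SRD5A1 came to 13.04 FPKM in the untreated library and 25.9 in the one labelled with Dox, a log2 ratio of 0.98 (95% counting interval 0.90 to 1.08), so the directions below are those between the libraries as labelled. Plasma cell identity was plain in both: 9 of 9 plasma cell and myeloma genes, among them SDC1, PRDM1 and IRF4, were detected, with summed levels of 2437 and 2337 FPKM. Of these, 2 (22.2%) were more than 2-fold higher with Dox, against 12% of all genes passing the 5 FPKM limit. They were SLAMF7 at 15.7 and 41.8 FPKM and TNFRSF17 at 97.7 and 204 FPKM. Only 4 of the 9 had a log2 ratio above 0, and the lowest was SDC1, at 345 and 237 FPKM (−0.54). Of 15 genes of T, myeloid, B, stromal and epithelial cells, 12 were under 1 FPKM in both libraries and 2 of these, CD3D and DCN, were listed at 0. Their summed level was 10.5 FPKM without and 5.82 FPKM with Dox, and without KRT18, which was at 6 and 1.44 FPKM, it was 4.48 and 4.38 FPKM. Depth was alike, at 45918570 and 48728927 expected counts, and the 202 ZNF genes took 0.677% and 0.825% of them.

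ZNF genes encode proteins built from C2H2 fingers, short loops in which a pair of cysteines and a pair of histidines hold a zinc ion and the residues between them read DNA or RNA. The largest subfamily carries an N-terminal KRAB box, which recruits TRIM28 (KAP1) and, through it, SETDB1, HP1 proteins and the NuRD complex to silence chromatin, often at retroelements. Most KRAB genes arose by tandem duplication and lie in clusters, above all on chromosome 19. Other ZNF proteins have no KRAB box and act as promoter factors, partners of chromatin complexes, ribosome assembly factors or mitotic proteins.

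The coding sequence of 1 finger shows what these genes share. It is printed for ZNF674, the gene with the highest ratio among those with more than 1 count, for ZNF594, another of the highest, for ZNF710, the lowest, and for ZNF146, one of the most abundant. In each the 4 codons in capitals encode the cysteines and histidines that hold the zinc. Coordinates are GRCh38 from GENCODE release 29, in the order ZNF674 on chrX:46500851-46500913 (minus strand), ZNF594 on chr17:5183810-5183872 (minus strand), ZNF710 on chr15:90068026-90068088 (plus strand) and ZNF146 on chr19:36236492-36236554 (plus strand), all exonic coding sequence.
ZNF674: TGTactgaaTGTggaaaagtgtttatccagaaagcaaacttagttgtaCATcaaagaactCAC
ZNF594: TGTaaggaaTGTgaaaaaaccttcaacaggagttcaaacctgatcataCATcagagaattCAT
ZNF710: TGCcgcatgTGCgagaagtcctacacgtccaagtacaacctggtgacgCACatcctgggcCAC
ZNF146: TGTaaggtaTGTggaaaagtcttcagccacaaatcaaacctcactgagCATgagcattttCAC
All 4 fingers span 63 bases with the capitals at the same positions. The ZNF674, ZNF594 and ZNF710 proteins held 11, 21 and 11 such fingers, and the ZNF146 protein 10. Among the 192 members with at least 1 finger, the number ran from 1, for example in ZNF593, to 31 in ZNF142, with a median of 9.

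Most of the 202 genes were modestly expressed. In the untreated library they ran from 0 to 189 FPKM with a median of 8.33, and in the library labelled with Dox from 3.18 to 135 with a median of 11.7. The 10278 other genes that passed the same limit had medians of 19.6 and 21.2 FPKM. Of the ZNF genes, 144 reached 5 FPKM in both libraries, 51 reached it only with Dox and 7 only without, so a part of the members entered through their value in the library where they were higher. Around the limit, ZNF680 (3.86 and 5 FPKM), ZNF292 (5.14 and 4.93) and ZNF776 (4.07 and 5.23) lay just inside. ZNF865 (4.80 and 4.52 FPKM), ZNF180 (4.01 and 4.95) and ZNF197 (2.01 and 4.97) lay just outside.

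The ratios were shifted upward and were slightly narrower than those of other genes. Each is the log2 of FPKM with Dox over FPKM without, after adding 0.1 FPKM to both. The 202 ZNF genes had a median log2 ratio of 0.37, with the middle 50% of genes between 0.02 and 0.82 (interquartile range 0.79). The 10278 other genes had a median of 0.07, with the middle 50% between −0.36 and 0.55 (interquartile range 0.90). Ratios above 0 were found for 154 ZNF genes (76.2%) against 54.3% of the other genes.

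More than 2-fold higher levels with Dox were found for 34 ZNF genes (16.8%), where 12% of all 10480 genes passing the filter were that much higher. Only 1 ZNF gene (0.495%) was more than 2-fold lower, where the share over all genes was 5.75%. These shares describe genes chosen on the same values, and the scaling moved them: with FPKM divided by TMM factors, which lowered the median log2 ratio of all genes by 0.21, the counts were 19 higher (9.41%, against 8.56% of the other genes) and 6 lower (2.97% against 9.91%). With DESeq2 size factors on the counts, 16 were higher (7.92% against 8.46%) and 3 lower (1.49% against 9.45%). The share upward was thus slightly larger than that of the other genes with TMM factors and slightly smaller with size factors. The share downward stayed smaller under both. The distance between the ZNF median and that of the other genes was 0.31 in FPKM, 0.31 with TMM factors and 0.30 with size factors.

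Genes expressed in both libraries gave a smaller shift. Over the 144 ZNF genes with at least 5 FPKM in both, the median log2 ratio was 0.24 and the interquartile range 0.67, against 0.03 and 0.79 for 8962 other genes. In this set 11 ZNF genes (7.64%) were past 2-fold upward and 0 downward. Over all 9106 genes of the set the shares were 7.17% and 4.78%. The share past 2-fold upward was therefore near the background, whereas the lower side was empty in FPKM. This emptiness depended on the scaling. With TMM factors ZNF593, ZNF286A and ZNF473, each with at least 5 FPKM in both libraries, were at −1.20, −1.02 and −1.01. With size factors ZNF593 was at −1.21. The 11 genes past 2-fold upward in FPKM included ZNF524, which went from 8.84 to 22.9 FPKM, and ZNF644, which went from 6.87 to 16.9 FPKM.

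The level of expression moved with the ratio in both sets. For genes whose higher library was at 5 to 10 FPKM, the median log2 ratio was 0.40 over 81 ZNF genes and 0.26 over other genes. At 10 to 20 FPKM it was 0.45 over 74 ZNF genes and 0.18 over others, and at 20 to 50 FPKM 0.33 over 38 and 0.08. At 50 FPKM or more the 9 ZNF genes had a median of 0.19 and the other genes one of −0.11. The ZNF median was the higher in all 4 bands, and in both sets the highest band had the lowest median.

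Base composition moved with the ratio as well. Protein-coding genes were split into quartiles by the GC percent of their transcript, and the medians of the other genes fell from 0.25 in the quartile lowest in GC through 0.13 and −0.05 to −0.21 in the highest. Those of the ZNF genes were 0.48, 0.47, 0.40 and 0.05, over 42, 59, 47 and 48 genes. The ZNF genes were close to the others in GC, with a median of 48.8% against 49.6%. Their median effective length was 2335 bases against 1933. The part of base composition, level and length in the ratios was not tested.

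At the upper end stood genes that were low without Dox. ZNF29P, a pseudogene without a coding transcript, had the highest log2 ratio, 6.77, from 0 FPKM to 10.8 FPKM, but this was 0 against 1 count on an effective length of a few bases, and no fold is drawn from it. ZNF674, an X-linked KRAB gene, followed at 1.89 FPKM without and 10.9 FPKM with Dox, from 173 and 860 expected counts, a log2 ratio of 2.47 (counting interval 2.29 to 2.78). ZNF389, a transcribed pseudogene, was at 1.37 and 6.89 FPKM, a log2 ratio of 2.25. ZNF594, a gene of 21 fingers with no KRAB match, was at 1.49 and 7.30 FPKM, a log2 ratio of 2.22 (counting interval 2.09 to 2.50). All of these lay under 5 FPKM without Dox and were members through the library labelled with Dox.

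Of the same kind were ZNF717, with 18 fingers, and 3 KRAB genes of chromosome 19. ZNF717 was at 3 and 10.9 FPKM, a log2 ratio of 1.82. ZNF627 was at 2.39 and 8.46 FPKM, ZNF548 at 2.81 and 9.81 FPKM, and ZNF333 at 3.02 and 10.4 FPKM, with log2 ratios of 1.78, 1.77 and 1.75. Their counts ran from 193 to 310 without Dox and from 629 to 1161 with Dox, so counting error was small against these ratios. For ZNF548 a part of the ratio was length: the effective length listed for it fell from 1979 to 1434 bases between the libraries, and its log2 ratio in counts alone, scaled to library size, was 1.34.

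The lower end held genes of several kinds and reached less far from 0. ZNF710, a finger protein without KRAB on chromosome 15, was the only member more than 2-fold lower, at 6.91 FPKM without and 3.18 FPKM with Dox, a log2 ratio of −1.10 (counting interval −1.26 to −0.98). ZNF593, a small protein of ribosome assembly with 1 finger, went from 72.1 to 36.3 FPKM, a log2 ratio of −0.99 (counting interval −1.12 to −0.86). ZNF579 was at 7.80 and 4.09 FPKM, a log2 ratio of −0.91 (counting interval −1.11 to −0.76), which was −0.55 in counts without length, its effective length being listed at 1786 and 2318 bases. The intervals of all 3 genes include −1, so at this depth none can be placed on one side of 2-fold.

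Among the next lowest were 3 KRAB genes. ZNF324B was at 8.85 and 4.85 FPKM, ZNF286A at 18.9 and 10.8 FPKM, and ZNF473 at 16.3 and 9.29 FPKM, with log2 ratios of −0.85, −0.81 and −0.80. ZNF473 encodes ZFP100, a subunit of the U7 snRNP complex that cuts histone pre-mRNA. ZNF296 (7.56 and 4.51 FPKM) and ZNF692 (33.1 and 20.1 FPKM) had log2 ratios of −0.73 and −0.72. KRAB genes were thus present at both ends.

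**Figure D1:**
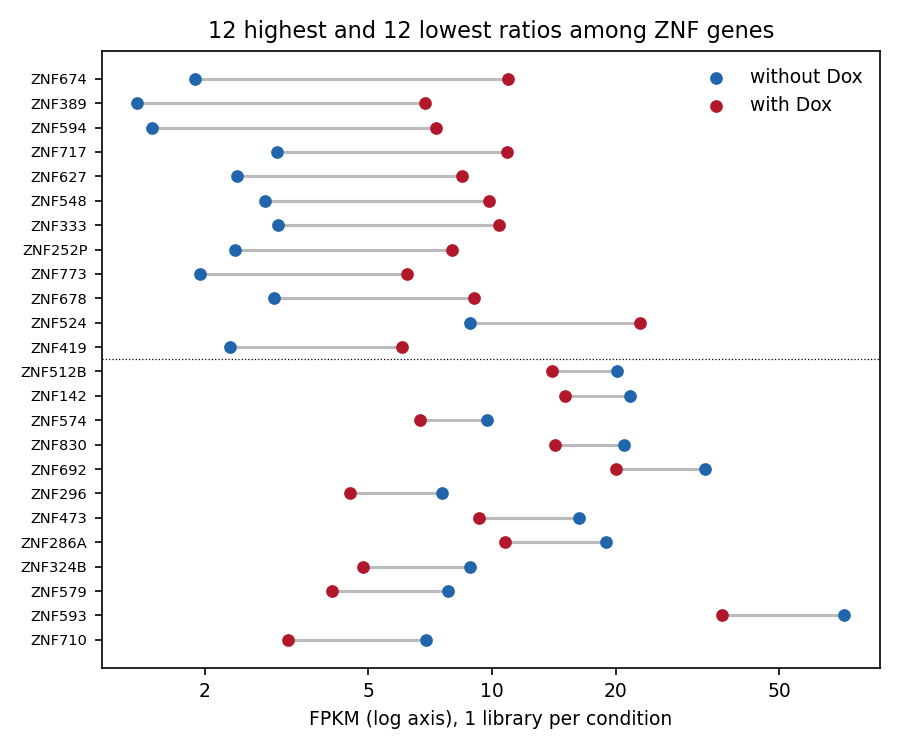
Blue points are FPKM in the untreated library and red points FPKM in the library labelled with Dox (log x axis) for the 12 highest and 12 lowest log2 ratios, ZNF29P left out; the grey line joins the libraries and the dotted line parts the ends. In 11 of the 12 upper genes the blue point lies under 5 FPKM, ZNF524 at 8.84 FPKM being the other. That the 12 lower genes all start above 5 FPKM follows from the filter. A gene lower with Dox passes it only by reaching 5 FPKM without Dox.

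The 8 most abundant ZNF genes lay on both sides of 0, from −0.99 for ZNF593, described above, to 0.41. ZNF207, also called BuGZ, a BUB3 partner at kinetochores and spindle microtubules, was the highest at 189 FPKM without and 135 FPKM with Dox, a log2 ratio of −0.49 (counting interval −0.52 to −0.46). ZNF146, a protein made almost wholly of fingers, was at 67.2 and 78.0 FPKM. ZNF217, an oncogene product that works with CoREST, was at 65.9 and 76.8 FPKM, and ZNF384, a transcription factor rearranged in acute leukemia, at 64.4 and 73.7 FPKM. Their log2 ratios were 0.22, 0.22 and 0.19, and those of ZNF217 and ZNF384 turned to −0.01 with DESeq2 size factors and TMM factors, respectively.

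The other abundant genes were ZNF655, a partner of the VAV1 signaling protein, at 53.8 and 71.5 FPKM (log2 ratio 0.41), and ZNF330, a nucleolar protein without a C2H2 match, at 68.2 and 56.4 FPKM (−0.27). ZNF639 was at 51.2 and 50.5 FPKM, a log2 ratio of −0.02 that turned to 0.08 in TPM and to 0.04 in counts without length. With ZNF593, 4 of the 8 most abundant members were thus below a ratio of 0 and 4 were above it.

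By protein group, KRAB genes were the higher of the large groups, and the gap was small next to the spread. Groups were read from the longest coding sequence by letter patterns, which miss diverged boxes. The 89 KRAB genes had a median log2 ratio of 0.47 and an interquartile range of 0.81, with 20 (22.5%) past 2-fold upward and 0 downward, where the shares over all genes were 12% and 5.75%. The 93 genes with fingers but neither KRAB nor SCAN had a median of 0.32 and an interquartile range of 0.69, with 7 (7.53%) upward and 1 downward. The 11 genes with a SCAN box, a dimerization domain, had a median of 0.11 with 3 higher, and 4 of them carried a KRAB match too. With at least 5 FPKM in both libraries, 58 KRAB and 73 other finger genes had medians of 0.26 and 0.22, with 6 (10.3%) and 3 (4.11%) past 2-fold upward against 7.17% of all genes, so most of the gap between these groups went with genes under 5 FPKM in 1 library.

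The remaining members were 3 genes without a finger match, ZNF330, ZNF720 and ZNF839, and 6 pseudogenes. ZNF720 was at 6.18 and 15.5 FPKM, a log2 ratio of 1.32, and ZNF839 at 4.34 and 8.21 FPKM (0.90). The pseudogenes were ZNF29P, ZNF252P, ZNF271P, ZNF37B, ZNF389 and ZNF767. Without ZNF29P, which rests on 1 count, their median log2 ratio was 0.79, and 2 of 5 (40%) were more than 2-fold higher, against 12% of all genes. These were ZNF389 and ZNF252P, both members only through the library labelled with Dox. With at least 5 FPKM in both libraries, 0 of 3 pseudogenes were past 2-fold.

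Genes with more fingers had higher medians. Members with 1 to 7 fingers (75 genes) had a median log2 ratio of 0.20, those with 8 to 11 (56 genes) 0.34, those with 12 to 15 (31 genes) 0.43, and the 30 genes with 16 or more 0.52. With 5 FPKM in both libraries the medians were 0.12, 0.22, 0.36 and 0.41. Single genes departed from this order: ZNF142, with 31 fingers, had a log2 ratio of −0.53, and ZNF646, with 30, one of 0.07. The interquartile ranges were 0.82, 0.97, 0.66 and 0.47, and the middle 50% of genes overlapped between all of these groups. The shares past 2-fold upward did not follow the medians, at 12%, 19.6%, 16.1% and 16.7%, against 12% of all genes. With 5 FPKM in both libraries they were 6.45%, 8.11%, 10% and 5.26%, against 7.17% of all genes.

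Chromosome 19 held 67 of the 202 genes, chromosome 7 held 22 and chromosome 16 held 19. On chromosome 19 the median log2 ratio was 0.49 with 13 genes (19.4%) more than 2-fold higher, and on the others it was 0.35 with 21 (15.6%), against 12% of all genes. With 5 FPKM in both libraries the shares were 9.76% and 6.80%, near the 7.17% of all genes. Among KRAB genes the medians were 0.64 over 45 genes of chromosome 19 and 0.38 over 44 elsewhere. With that stricter limit these became 0.29 over 24 genes and 0.22 over 34.

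Neighbouring genes did not share one ratio. ZNF genes were joined into a cluster where they lay within 500 kb of each other, and 11 clusters held at least 5 members. The largest, at the end of the long arm of chromosome 19 (chr19:57389850-58481230), held 43 ZNF genes, of which 22 were members with a median log2 ratio of 0.62. In it 7 genes (31.8%) were more than 2-fold higher, against 12% of all genes. ZNF548 at 1.77 was among them, and ZNF324B was at −0.85. Of the 7 higher genes, only ZNF749, at 9.20 and 20.3 FPKM, reached 5 FPKM in both libraries. The others were members through the library labelled with Dox. The effective length listed for ZNF749 fell from 1108 to 800 bases. Its log2 ratio of 1.13 was 0.67 in counts without length, 0.93 with TMM factors and 0.45 with size factors. At the end of chromosome 12 (chr12:132918308-133214831), 5 of 7 ZNF genes were members with the highest median of the clusters, 1.13. There ZNF605 went from 3.09 to 7.09 FPKM, ZNF140 from 6 to 13.3 and ZNF268 from 5.86 to 12.98, whereas ZNF26 was at 7.71 and 7.83 FPKM. With TMM factors none of ZNF605, ZNF140 and ZNF268 was past 2-fold, at 0.97, 0.93 and 0.93. The cluster at chr7:149126416-149867479 had a median of 0.17 over 8 members, with 0 past 2-fold.

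By role, promoter and chromatin factors without KRAB were mostly above 0. Of 26 listed, 18 passed the filter, with a median log2 ratio of 0.33, 15 above 0, 1 past 2-fold upward and none downward. ZNF644, a partner of the histone methyltransferases G9a and GLP, had a log2 ratio of 1.28, which was 0.998 in counts without length and 0.78 with size factors. ZNF827, which recruits NuRD to telomeres, went from 19.1 to 37.0 FPKM (0.95), and ZNF219, a repressor and SOX9 partner, from 3.81 to 7.43 FPKM (0.95). ZNF219, ZNF516 and ZNF652 had passed the filter only through the library labelled with Dox.

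Ribosome and RNA-binding members ran from −0.99 for ZNF593 to 0.39 for ZNF638. Of 10 listed, 7 passed, with a median log2 ratio of 0.05. None was past 2-fold in either direction, against 12% upward and 5.75% downward over all genes. ZNF622, which acts late in assembly of the large ribosomal subunit, was at 42.6 and 51.7 FPKM (0.28), and ZNF638, an RNA- and DNA-binding nuclear protein, at 34.3 and 45.0 FPKM (0.39). Of 4 mitosis and DNA repair genes 3 passed: ZNF207 at −0.49, ZNF830, a partner of CtIP, at 21.0 and 14.2 FPKM (−0.56), and ZNF451, a SUMO ligase, at 12.95 and 23.3 FPKM (0.84).

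Of 14 listed KRAB proteins that bind retroelements only 5 passed the filter, with a median log2 ratio of 0.41, and ZNF248 and ZNF417 did so through the library labelled with Dox alone. Of those under the filter, ZNF611 was at 2.70 and 2.17 FPKM. ZNF248 was at 4.54 and 9.29 FPKM, a log2 ratio of 1.02 that was 0.66 in counts without length and 0.44 with size factors, ZNF417 at 4.08 and 6.72 FPKM (0.71) and ZNF33A at 11.6 and 15.4 FPKM (0.41). ZNF91 and ZNF93, which bind SVA and LINE-1 elements, were at or under 0.03 FPKM in both libraries. The role lists are small, and their shares past 2-fold lie on either side of the background.

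The co-repressors that KRAB proteins work with lay on both sides of 0. TRIM28, the KRAB-binding scaffold, went from 296 to 123 FPKM, a log2 ratio of −1.27 (counting interval −1.30 to −1.23). CHD4, the NuRD remodeler, went from 122 to 52.4 FPKM (−1.22), and UHRF1, which guides maintenance DNA methylation, from 28.4 to 14.2 FPKM (−0.99). SETDB1, the histone H3 lysine methyltransferase that TRIM28 recruits, went the other way, from 40.9 to 58.9 FPKM (0.52). Over all 21 co-repressor genes the median log2 ratio was −0.10, with 8 (38.1%) above 0, 2 (9.52%) past 2-fold downward and 0 upward. Over all genes passing the filter these shares were 54.7%, 5.75% and 12%. The difference between this list and the KRAB genes was not tested.

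Other finger families had positive medians too. The median log2 ratio was 0.29 over 25 ZBTB genes, whose proteins pair fingers with a BTB domain, with 3 (12%) past 2-fold upward and 1 (4%) downward. It was 0.31 over 12 ZSCAN and ZKSCAN genes, with 2 (16.7%) higher. Over 15 KLF and SP genes, promoter factors with 3 fingers, it was 0.78, with 5 (33.3%) higher. The shares over all genes were 12% upward and 5.75% downward. With at least 5 FPKM in both libraries, 0 of 19, 2 of 11 and 3 of 13 genes of these families were higher, against 7.17% of all genes.

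Promoter sequence was read from the RefSeq table (GRCh38.p14), from 250 bases before to 50 after the start of a gene, for 174 of the 202 genes. The letters CCGGAAGT, the core bound by ETS-family factors such as GABPA, stood on either strand in 41 of these 174 windows (23.6%), against 11.8% of 7155 other genes past the filter and 4.95% of all 27305 windows. By ratio, 10 of 27 ZNF genes more than 2-fold higher held them, 22 of 106 genes above 0 and up to 2-fold, and 9 of 41 at 0 or below. Stretches are shown for the genes with the highest and lowest ratios that hold the letters, the match in capitals: ZNF594 (chr17:5192018-5192085, minus strand), ZNF717 (chr3:75785538-75785605, minus strand), ZNF324B (chr19:58451574-58451641, plus strand) and ZNF593 (chr1:26169885-26169937, plus strand).
ZNF594: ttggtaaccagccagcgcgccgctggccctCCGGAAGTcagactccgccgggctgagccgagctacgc
ZNF717: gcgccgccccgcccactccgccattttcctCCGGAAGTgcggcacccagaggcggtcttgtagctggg
ZNF324B: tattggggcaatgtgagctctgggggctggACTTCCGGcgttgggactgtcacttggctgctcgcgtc
ZNF593: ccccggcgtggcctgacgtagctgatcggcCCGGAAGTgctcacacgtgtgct
In ZNF324B the letters lie on the opposite strand. The same letters are thus present in genes at both ends of the ratios. Searched in the same way, with none of the strings contained in another, the other motifs were ACTACAA, part of the ZNF143 site, in 15 ZNF windows (8.62%, against 5.21% of other genes past the filter), TGACGTCA in 10 (5.75% against 4.03%), the NRF1 palindrome in 7 (4.02% against 3.06%) and TGATGNAA, the ATF4 and C/EBP composite, in 2 (1.15% against 2.43%). A match says only that the letters are in the window. Windows of duplicated genes were counted separately and are not independent. The 68 bases around the ETS letters, for example, were identical in ZNF814 and ZNF587B.

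Duplicated genes share sequence, and fragments that map to several of them were split by the authors' estimation. Expected counts were not whole, the mark of such splitting, in at least 1 library for 107 of the 202 ZNF genes (53.0%), against 47.4% of other genes, and for 62.9% of KRAB genes. The median log2 ratio was 0.36 over the 95 members with whole counts and 0.39 over the other 107. Effective lengths also differed by more than 0.2 on the log2 scale for 41 members (20.3%), against 10.5% of other genes. The FPKM ratio and the count ratio had opposite signs in 9 of the 202 members and in 499 of the 10278 other genes. ZNF444, for example, went from 12.9 to 9.67 FPKM while its expected counts went from 858 to 945, with a listed effective length of 1445 and 2005 bases.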

How the data were processed

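Poly(A) RNA of 2 ARP1 libraries was sequenced as paired 150-base reads by the authors. The authors deposited, for each gene and library, an expected count (an estimated count that need not be whole), TPM and FPKM, with effective lengths, in the layout RSEM gives. The submitters' processing notes name HISAT2 2.1.0, StringTie 1.3.4d, Bowtie 0.12.2 and hg19, without their roles. GENCODE release 29 holds 202888 of the 204675 transcripts listed, and places on GRCh38 were taken from it; they are not the authors' alignment coordinates.

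Ratios were taken from FPKM with 0.1 added, over genes that reached 5 FPKM in either library. A difference of more than 2-fold was counted; with 1 library per condition no test was run. Intervals are exact (Clopper-Pearson) 95% intervals of the split of rounded counts, rescaled by the library totals and effective lengths, and cover counting error only. FPKM columns do not sum to a fixed total, so other scalings were tried: TPM, counts scaled to library size, TMM factors (edgeR 4.0.16) and DESeq2 1.42.0 size factors, besides other pseudocounts, filters, and protein-coding genes only. Expected counts were rounded for the size factors. Fingers were counted as C2H2 letter patterns, KRAB as at least 8 of 10 consensus residues and SCAN as a short consensus, in the longest coding sequence of each gene. Tables were handled with Python 3.11.15 and pandas 2.3.3.

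The members and gene lists were chosen with earlier results of these data known. Of the markers of other cells, 1 is not reported here. Genes named were the 8 highest and 8 lowest ratios, the 8 most abundant, the 3 largest absolute ratios of each role list and of the co-repressors, the 3 on either side of the 5 FPKM limit, TRIM28, SETDB1 and SRD5A1; others, markers included, were named after their values were seen.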

Additional observations from a re-analysis of the deposited data

How the results depend on the processing

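The median ZNF log2 ratio lay above that of the other genes in all 14 alternatives. It was 0.31 above, and 0.21 above both for genes with at least 5 FPKM in both libraries and without a filter. The interquartile range stayed within 1.5 times of 0.79 in each. The counts past 2-fold moved with filter and scaling. Against 34 higher and 1 lower, they were 11 and 0 for at least 5 FPKM in both libraries and 18 and 0 for at least 10 FPKM. For at least 1 FPKM they were 66 and 1, and without a filter 87 and 4. The upward shares for these 4 filters were 7.64%, 14.9%, 20.4% and 18.5%, against 7.16%, 10.0%, 16.9% and 16.8% of other genes. The downward shares were 0%, 0%, 0.310% and 0.849%, against 4.85%, 5.97%, 6.55% and 6.86%. The counts were 19 and 6 with TMM factors and 16 and 3 with DESeq2 size factors on counts. There the upward shares were 9.41% and 7.92% against 8.56% and 8.46% of other genes. A pseudocount of 1 FPKM left 0 lower, against 5.07% of other genes. The last scalings lowered the median log2 ratio of all genes by 0.21 and 0.20. Over all 202 members the sign changed for 8 in TPM, 9 in counts without length, 27 with TMM factors and 33 with size factors. Among the 33 members named by rule, 3 changed sign: ZNF217 to −0.013 (DESeq2 size factors), ZNF384 to −0.014 (TMM factors) and ZNF639 to 0.076 (TPM) and 0.044 (counts without length). The alternatives without ZNF29P (33 higher) and with at least 50 counts (33 higher) were chosen after seeing the data. No replicate could be left out, and no paired analysis was possible because each condition has 1 library. Replicate error is unknown, and depth limits genes near 2-fold such as ZNF710.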
